A study of Mus musculus with 2 samples.

Results

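The 7 haemoglobin genes of the mouse alpha and beta globin loci, Hba-a1, Hba-a2, Hba-x, Hbb-bt, Hbb-bs, Hbb-y and Hbb-bh1, were followed in single-cell RNA sequencing of embryonic limb muscle. They were taken by symbol, and all 7 were among the 32285 genes of both count matrices. The values are UMI counts, in which each unique molecular identifier stands for a captured RNA molecule, per cell barcode. A barcode was called haemoglobin-rich where the 7 genes held 50% or more of its UMIs, which gave 70 of 12941 barcodes at E12.5 (E for embryonic day) and 243 of 5780 on E15.5. The series compared limb skeletal muscle of E12.5 and E15.5 embryos with 1 library per age. All embryos were wild-type C57Bl/6 mice with no treatment named. Each library combined forelimbs and hindlimbs, and the labels do not give the number of embryos pooled. Tissue was taken apart mechanically and with trypsin, and 20000 cells were loaded per 10x 3′ v3.1 library for a target of 10000. With 1 library per age there is no replicate check, no test was made, and every interval is a 95% interval for counting error only.

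Haemoglobin is a tetramer of paired alpha-like and beta-like chains, each holding a haem group. In the mouse embryo the first red cells, made in the yolk sac and called primitive, use the embryonic chains zeta (Hba-x), epsilon-y (Hbb-y) and beta-h1 (Hbb-bh1) together with adult alpha chains. Red cells made later in the foetal liver, called definitive, use the adult chains of Hba-a1, Hba-a2, Hbb-bs and Hbb-bt. Both kinds circulate in mid-gestation embryos, and limb tissue holds them in its vessels.

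The alpha-like genes lie in order on chromosome 11 (GRCm38, GENCODE M21, plus strand), with Hba-x (ENSMUSG00000055609) at 32276400 to 32278116, Hba-a1 (ENSMUSG00000069919) at 32283511 to 32284465 and Hba-a2 (ENSMUSG00000069917) at 32296489 to 32297298. The beta-like genes lie on the minus strand of chromosome 7, so that transcription runs from Hbb-y towards Hbb-bt. Hbb-y (ENSMUSG00000052187) spans 103851749 to 103853216 and Hbb-bh1 (ENSMUSG00000052217) spans 103841637 to 103843164. Hbb-bs (ENSMUSG00000052305) spans 103826534 to 103828096 and Hbb-bt (ENSMUSG00000073940) spans 103812524 to 103813996. All 7 are annotated as protein-coding.

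The 250 bases before the RefSeq start of an embryonic and an adult gene of each locus are given, since these genes traded places between the ages. They come from RefSeq (GRCm38.p6), are written 5′ to 3′ on the gene's strand, and lie at chr7:103853208-103853457 (Hbb-y, minus), chr7:103827929-103828178 (Hbb-bs, minus), chr11:32276350-32276599 (Hba-x, plus) and chr11:32283422-32283671 (Hba-a1, plus). The RefSeq starts differ from the GENCODE bounds given above, so each of these windows lies partly inside the span printed there. Capitals mark every match of the CACCC box, the CCAAT box, the GATAA motif of GATA factors and 2 TATA-like words, one being ATAAA and the other ATATAA. Both strands were searched, a match on the other strand is capitalised as its reverse complement, and matches that touch or overlap run together.
Hbb-y: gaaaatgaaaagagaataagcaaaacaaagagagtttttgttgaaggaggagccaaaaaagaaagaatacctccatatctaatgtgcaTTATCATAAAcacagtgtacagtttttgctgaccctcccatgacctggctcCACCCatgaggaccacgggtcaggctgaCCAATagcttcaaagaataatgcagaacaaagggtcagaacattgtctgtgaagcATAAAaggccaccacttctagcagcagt
Hbb-bs: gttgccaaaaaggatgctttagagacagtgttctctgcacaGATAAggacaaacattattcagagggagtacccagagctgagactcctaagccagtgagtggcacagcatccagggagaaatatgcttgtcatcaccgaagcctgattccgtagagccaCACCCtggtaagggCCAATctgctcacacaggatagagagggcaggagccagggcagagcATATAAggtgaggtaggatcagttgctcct
Hba-x: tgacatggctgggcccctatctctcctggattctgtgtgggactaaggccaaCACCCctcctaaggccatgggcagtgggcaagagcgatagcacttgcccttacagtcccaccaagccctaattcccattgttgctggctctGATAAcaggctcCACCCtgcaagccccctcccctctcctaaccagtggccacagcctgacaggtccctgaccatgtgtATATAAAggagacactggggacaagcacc
Hba-a1: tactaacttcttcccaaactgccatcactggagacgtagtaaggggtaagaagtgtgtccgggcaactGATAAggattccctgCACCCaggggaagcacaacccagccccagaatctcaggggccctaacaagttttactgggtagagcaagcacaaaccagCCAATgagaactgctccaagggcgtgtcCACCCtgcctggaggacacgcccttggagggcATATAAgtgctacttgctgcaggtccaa

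Windows were listed for 6 of the 7 genes, the exception being Hbb-bh1. Among all 32851 RefSeq windows of 250 bases, CACCC was found in 52.0%, CCAAT in 33.8%, GATAA in 22.6%, ATAAA in 37.3% and ATATAA in 9.10%. All 6 globin windows held CACCC and GATAA. The Hba-x window lacked CCAAT, which was found in the other 5 and occurred 3 times in the Hbb-bt window. ATATAA began 28 to 31 bases before the start in 5 windows, and Hbb-y had ATAAA at 28 bases instead. The windows of Hba-a1 and Hba-a2 were identical over 247 aligned bases, against 73.3% identity between Hbb-bt and Hbb-bs and 64.5% between Hbb-y and Hbb-bs. These matches describe the letters only.

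The likeness of the transcripts limits what can be counted apart. Hba-a1 and Hba-a2 transcripts were identical at 99.8% of 538 aligned bases, and 80.1% of the 50-base words in the last 300 bases of Hba-a1 also occurred in Hba-a2. Hbb-bt and Hbb-bs were identical at 92.7%, with 36.3% of the last words of Hbb-bt shared. The split of reads within each of these adult pairs is therefore uncertain. No 50-base word was shared between an embryonic gene and any other of its locus, so the split between embryonic and adult genes does not rest on such reads.

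The E12.5 library held 34907675 UMIs with a median of 2384 per barcode, and the E15.5 library 46966083 with a median of 7332.5. No barcode had under 500 UMIs. Barcode sequences shared by the libraries numbered 17, none of them haemoglobin-rich. The 7 globins took 143586 UMIs (0.411%) on E12.5 and 1232233 (2.62%) on E15.5, and haemoglobin-rich barcodes held 66.5% and 93.2% of those. Haemoglobin-rich barcodes made up 0.541% (0.422 to 0.683) and 4.20% (3.70 to 4.75) of all barcodes, counts that the rule itself sets. Just outside the threshold, 5 barcodes on E12.5 and 2 on E15.5 had 45% to 50% globin, the highest at 48.6% and 49.7%. Just inside it, 9 and 3 had 50% to 55%, the lowest at 50.5% and 51.5%. The highest globin shares of a barcode were 81.4% and 93.7%. The name haemoglobin-rich was checked on 10 erythroid markers that are not globins, Alas2, Slc4a1, Klf1, Gata1, Rhag, Hemgn, Epb42, Ermap, Slc25a37 and Car2. All 10 were detected in these barcodes at both ages, at a summed 20598 and 18896 CPM of non-globin UMIs (UMIs scaled to 1000000 non-globin UMIs), against 30.3 and 21.7 in barcodes with under 2% globin. Markers of other cells were also present. The 12 connective tissue markers summed to 1196 and 3439 CPM of non-globin UMIs (4253 and 11260 in barcodes under 2%), the 10 chondrocyte markers to 779 and 118, the 14 muscle markers to 290 and 197, and the 11 immune markers to 0 and 118. Their part in the values below was not tested.

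Embryonic globins led on E12.5 and adult globins on E15.5. Hbb-y, the main embryonic beta-like chain, held 51.6% (51.3 to 52.0) of the globin UMIs of haemoglobin-rich barcodes on E12.5 and 1.73% (1.71 to 1.76) on E15.5, so that the ages differed by -49.9 percentage points (-50.2 to -49.6). Over barcodes its share ran from 0 through a median of 53.2% to 62.9% on E12.5. At E15.5 the median was 0 and the highest 59.4%, so a few E15.5 barcodes were at the E12.5 level. Hbb-bh1, the lesser embryonic beta-like chain, was at 2.09% (2.005 to 2.19) and 0.00958% (0.00787 to 0.0115), which were 2000 and 110 UMIs. Hba-x, the embryonic alpha-like chain, was at 17.7% (17.4 to 17.9) and 0.427% (0.416 to 0.440), a difference of -17.3 points. It had a UMI in 67 of 70 barcodes on E12.5 and in 21 of 243 on E15.5.

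The adult beta-like genes were higher by the most. Hbb-bs was at 3.53% (3.42 to 3.65) and then 46.3% (46.2 to 46.4), a difference of 42.7 points (42.6 to 42.9), and was the most abundant globin of E15.5. Hbb-bt was at 4.96% (4.82 to 5.10) and then 18.6% (18.6 to 18.7). Hbb-bt was thus above Hbb-bs on E12.5 and below it on E15.5, with the reservation on reads shared by this pair. The adult alpha genes, which primitive cells also use, differed less. Hba-a1 was at 12.7% (12.498 to 12.9) and then 18.7% (18.6 to 18.7), and Hba-a2 at 7.39% (7.22 to 7.56) and then 14.3% (14.2 to 14.3). By level the order on E12.5 was Hbb-y, Hba-x, Hba-a1, Hba-a2, Hbb-bt, Hbb-bs and Hbb-bh1. Counting intervals of neighbours did not overlap, but the interquartile ranges over barcodes did for Hba-x and Hba-a1 (13.7% to 22.8% and 10.9% to 14.5%) and for Hbb-bs and Hbb-bh1 (1.07% to 2.997% and 0.855% to 3.06%). The Hbb-bs share of E12.5 rests in part on 4 barcodes, described below, which gave 1361 of its 3373 UMIs. In the other 66 it was 2.19% (2.09 to 2.28) and did not differ from Hbb-bh1, at 2.17% (2.08 to 2.27), beyond counting error. At E15.5 the order was Hbb-bs, Hba-a1, Hbb-bt, Hba-a2, Hbb-y, Hba-x and Hbb-bh1, and Hba-a1 and Hbb-bt did not differ beyond counting error.

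Taken by locus, the embryonic share of beta-like UMIs (Hbb-y and Hbb-bh1 among the 4 beta-like genes) was 86.4% (86.1 to 86.6) on E12.5 and 2.61% (2.58 to 2.65) on E15.5, a difference of -83.7 points (-84.0 to -83.5). Hba-x made up 46.8% (46.3 to 47.3) and 1.28% (1.25 to 1.32) of alpha-like UMIs. The alpha-like genes as a whole held 37.8% (37.5 to 38.1) and 33.3% (33.3 to 33.4) of globin UMIs, a log2 ratio of alpha-like to beta-like UMIs of -0.72 and -0.999. Beta-like UMIs therefore outnumbered alpha-like UMIs at both ages. The plot of globin make-up sets these shares beside those of the groups described next.

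**Figure D1:**
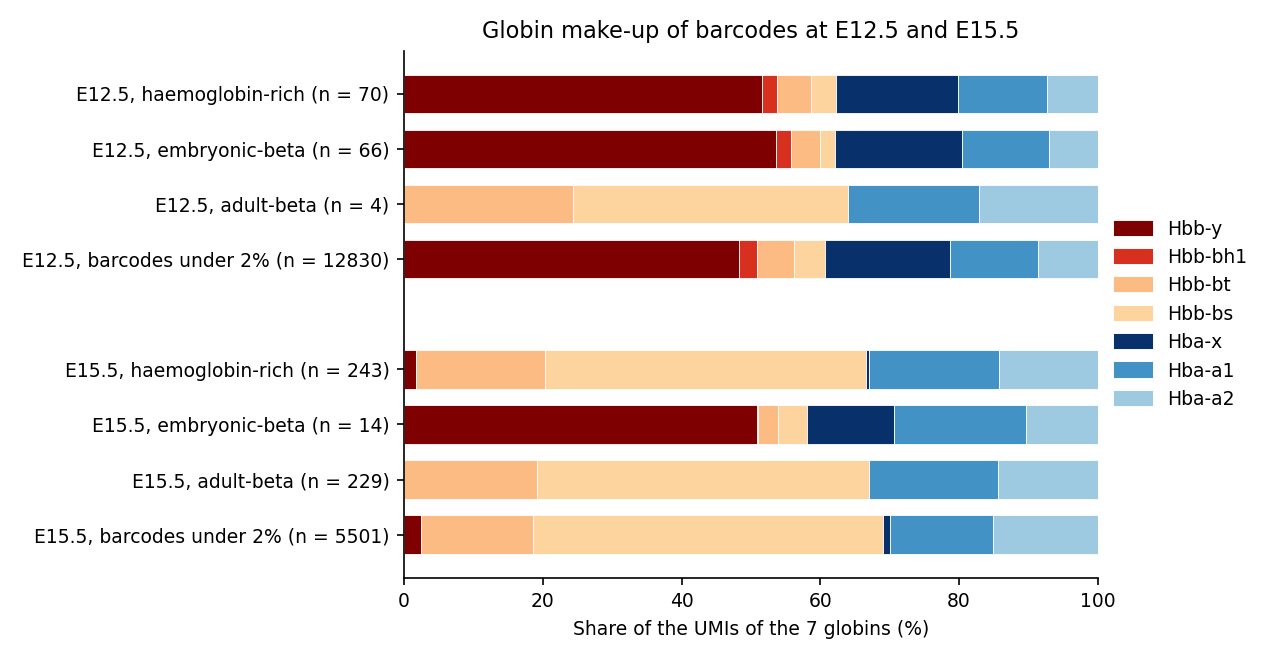
Share of each of the 7 globins (%, bars sum to 100) in haemoglobin-rich barcodes, in their embryonic-beta and adult-beta groups, and in barcodes with under 2% globin, at both ages. Hbb-y holds 53.6% and 50.8% of the embryonic-beta groups of E12.5 and E15.5, and in barcodes under 2% embryonic genes lead on E12.5 and adult genes on E15.5.

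No haemoglobin-rich barcode lay between the extremes. With the barcodes divided at an embryonic share of 50% of beta-like UMIs, 66 of the 70 E12.5 barcodes (94.3%, 86.0 to 98.4) were above, at 68.7% to 96.6%, and will be called embryonic-beta. The other 4, called adult-beta, were at 0.155% or less. At E15.5, 14 of 243 (5.76%, 3.19 to 9.48) were embryonic-beta, at 83.1% to 93.7%, and 229 were adult-beta, at 1.19% or less. None at either age fell between 40% and 60%. The groups are ranges of a measured share and not cell types. Both kinds thus occurred in both libraries, in reversed proportion.

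The gap was also present below the haemoglobin threshold. Of the 41 E12.5 barcodes with 2% to 50% globin, 37 were embryonic-beta and 4 adult-beta, with none between 40% and 60%. Of 36 such barcodes on E15.5, 16 were embryonic-beta and 20 adult-beta. One of these, a barcode of 669 UMIs, was at 53.8%. The share of embryonic-beta barcodes on E15.5 was accordingly 44.4% (27.9 to 61.9) from 2% to 50% globin and 5.76% above 50%. From 2% to 50%, the adult-beta barcodes of E15.5 had medians of 13325 UMIs and 2949 genes, and the embryonic-beta ones 1548.5 and 256.5. Adult-beta barcodes above 50% had a median of 238 genes. The 44.4% thus sets barcodes of unlike depth side by side and is not a proportion of red cell kinds. Above the threshold, the adult-beta barcodes of E15.5 carried more globin, with a median of 88.2% of their UMIs against 70.6% in the embryonic-beta ones. The plot of single barcodes shows how the count on E15.5 depends on the threshold.

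**Figure D2:**
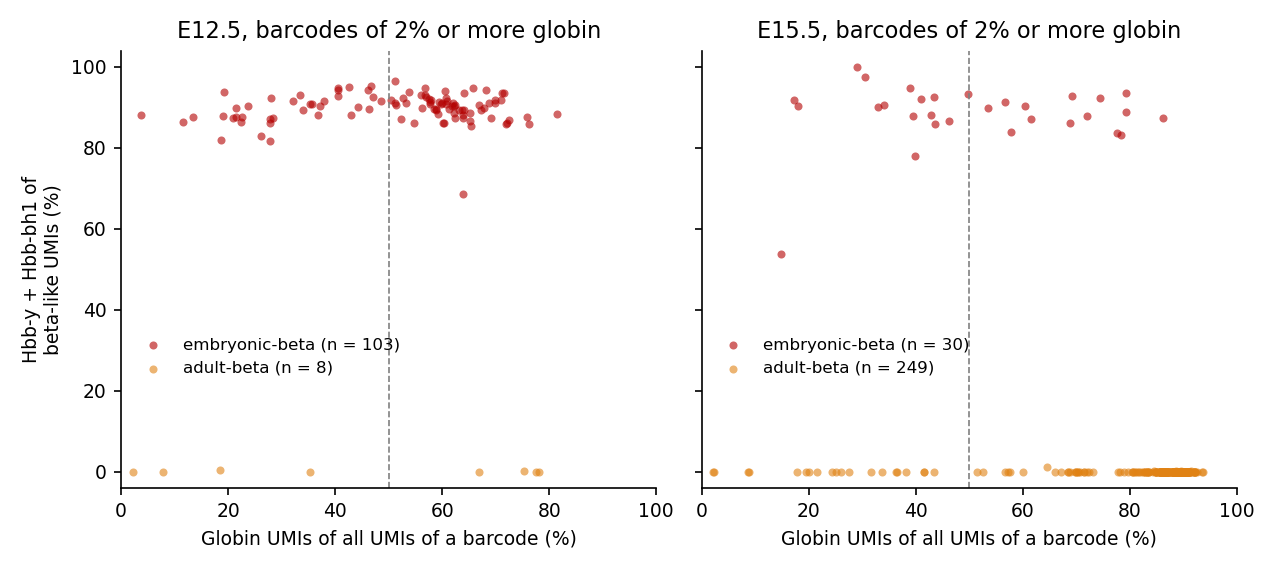
Embryonic share of beta-like UMIs (%) against the globin share of all UMIs (%), 1 point per barcode with 2% or more globin, for E12.5 (left) and E15.5 (right). The dashed line marks the 50% threshold, and points lie near the top or the bottom with 1 E15.5 barcode at 53.8%.

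Adult-beta barcodes were almost free of embryonic globin RNA. The 4 E12.5 barcodes held 1 embryonic UMI among 2201 beta-like UMIs and 2 Hba-x UMIs among 1239 alpha-like UMIs. Their Hbb-y counts were 0, 0, 1 and 0, beside Hbb-bs counts of 426, 259, 419 and 257 and Hbb-bt counts of 264, 153, 227 and 195. The 229 E15.5 barcodes held 22 embryonic UMIs (10 of Hbb-y and 12 of Hbb-bh1) among 742908 beta-like UMIs and 7 Hba-x UMIs among 366690 alpha-like UMIs. For comparison, barcodes of that library with under 2% globin held 0.0349 embryonic beta-like UMIs each on average. The adult-beta groups of both ages were made of the same 4 genes, though in other proportions. Hbb-bs was 61.9% (59.8 to 63.9) of adult beta-like UMIs in the 4 barcodes of E12.5 (range 56.9% to 64.9%) and 71.3% (71.2 to 71.4) in the 229 of E15.5 (range 60.1% to 95.4%). The ranges overlap.

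Embryonic-beta barcodes carried adult RNA of both loci at both ages. Adult genes gave 5907 of 57207 beta-like UMIs in the 66 barcodes of E12.5 and 2773 of 22765 in the 14 of E15.5, with a median of 84.5 and 142.5 such UMIs per barcode. Barcodes with under 2% globin held 0.0593 and 0.926 on average. Adult beta-like UMIs count towards the globin share that sets both groups, so this difference follows in part from the rule. What free RNA or doublets added to the adult counts was not tested. Hba-a1 and Hba-a2 were found in every embryonic-beta barcode. No haemoglobin-rich barcode held embryonic globin RNA alone. Among the 229 adult-beta barcodes of E15.5, Hbb-y was seen in 7, Hba-x in 7 and Hbb-bh1 in 4.

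The embryonic-beta barcodes of the 2 ages were not alike in make-up. Their Hbb-y share was near the same, 53.6% (53.2 to 53.9) of globin UMIs on E12.5 and 50.8% (50.3 to 51.3) on E15.5, and so was their embryonic share of beta-like UMIs, 89.7% (89.4 to 89.9) and 87.8% (87.4 to 88.2). The other 2 embryonic genes were lower on E15.5. Hba-x was 48.5% (47.9 to 49.0) of alpha-like UMIs on E12.5 and 29.9% (29.2 to 30.6) on E15.5, a difference of -18.6 points (-19.4 to -17.7). Over barcodes it ran from 8.27% through a median of 49.7% to 69.3% on E12.5 and from 12.9% through 27.1% to 50.4% on E15.5. The medians are far apart and the ranges overlap. Hbb-bh1 was 3.90% (3.73 to 4.07) of embryonic beta-like UMIs on E12.5 and 0.490% (0.398 to 0.597) on E15.5. Its 98 UMIs on E15.5 came from 10 of the 14 barcodes, while all 66 on E12.5 had it.

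The adult genes within embryonic-beta barcodes differed as well. Hbb-bs was 34.1% (32.9 to 35.3) of their adult beta-like UMIs on E12.5 and 59.9% (58.0 to 61.7) on E15.5, a difference of 25.8 points (23.6 to 27.97). The medians over barcodes were 32.3% and 66.2%, and the ranges, 2.25% to 78.5% and 7.41% to 85.2%, overlap. The split between Hba-a1 and Hba-a2 did not differ beyond counting error, with Hba-a1 at 64.0% (63.3 to 64.7) and 64.9% (64.0 to 65.8) and a difference of 0.906 points (-0.216 to 2.02). In the adult-beta barcodes of E15.5 it was lower, at 56.4% (56.3 to 56.6). The alpha-like share of globin UMIs was 37.8% (37.5 to 38.2) in embryonic-beta barcodes of E12.5 and 41.9% (41.4 to 42.4) in those of E15.5, against 33.0% in adult-beta barcodes of E15.5. One of the 14 E15.5 barcodes stood apart with an alpha-like share of 70.9%. Below the threshold, 1 E15.5 barcode of 991 UMIs held 274 Hba-x UMIs beside 1 of Hba-a2, 10 of Hbb-y and 2 of Hbb-bh1, and none of the other globins.

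Barcodes of a kind varied beyond counting error. The Hba-x share of alpha-like UMIs in the 66 E12.5 embryonic-beta barcodes had an SD of 13.7 points, where counting alone would give 2.34. For the embryonic share of beta-like UMIs the SD was 3.67 points against 1.12. For Hba-a1 among Hba-a1 and Hba-a2 it was 4.24 against 3.20. The 2 lesser embryonic genes moved together across these 66 barcodes, with a Pearson r of 0.55 and a Spearman rho of 0.60 between the Hba-x share of alpha-like UMIs and the Hbb-bh1 share of embryonic beta-like UMIs. These barcodes share a library and differ in depth. The Hba-x share had an r of 0.11 with total UMIs, 0.32 with genes detected and -0.27 with the globin percentage, and Hbb-bh1 had 0.10, 0.37 and -0.30. Among the 14 E15.5 barcodes the r was -0.059 and the rho 0.0022.

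**Figure D3:**
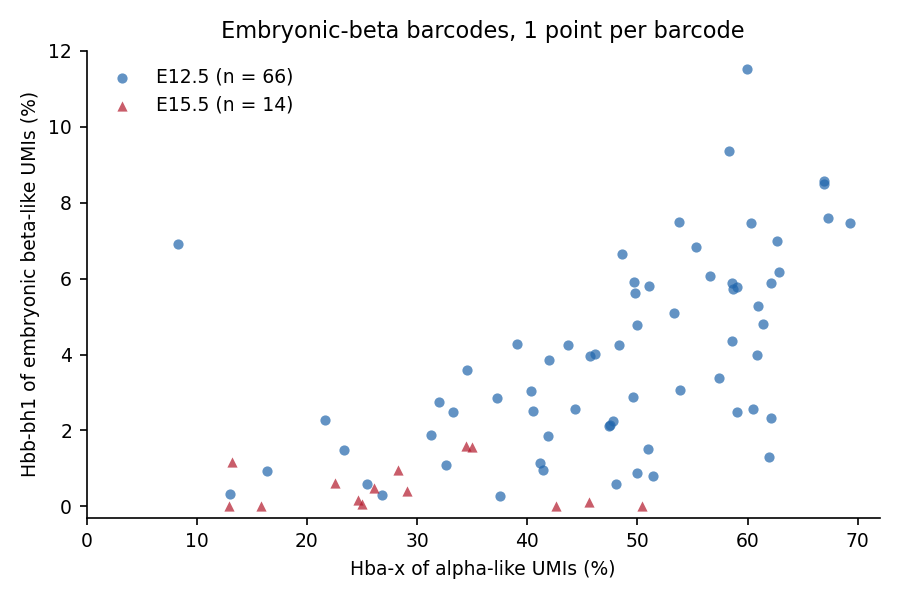
Hbb-bh1 share of embryonic beta-like UMIs (%) against the Hba-x share of alpha-like UMIs (%) in haemoglobin-rich embryonic-beta barcodes, 1 point each, on E12.5 (circles) and E15.5 (triangles). The E15.5 points have Hbb-bh1 at 1.59% or less and Hba-x between 12.9% and 50.4%.

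Other members of the globin family were rare. The theta globins Hbq1a and Hbq1b of the alpha locus had 2 and 11 UMIs in E12.5 haemoglobin-rich barcodes and 21 and 16 on E15.5, and at most 2 UMIs each in barcodes under 2% of either library. Hbb-bh2 had 1 UMI on E12.5 and 0 on E15.5. Myoglobin (Mb), the oxygen store of muscle fibres, neuroglobin (Ngb) and cytoglobin (Cygb) had no UMI in haemoglobin-rich barcodes at either age. A floor of 3 counts there is worth 19.9 CPM of all UMIs on E12.5 and 2.26 on E15.5, and the 95% interval of a count of 0 reaches 24.5 and 2.78. In barcodes under 2%, Mb was at 1.56 CPM (1.17 to 2.04) on E12.5 and 0.221 (0.106 to 0.406) on E15.5. Cygb, which fibroblasts express, was at 3.44 (2.85 to 4.11) and 16.9 (15.7 to 18.2).

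Globin RNA was also found outside red cells. Red cells can burst during dissociation and their RNA can enter droplets of other cells, so globin UMIs measure such free RNA in a class that does not make globin. Barcodes under 50% globin were filtered and clustered without the globin genes, and clusters were named from markers as X-like. These names were rebuilt here, and the naming rule was set after clusters had been seen. All 10977 clustered cells of E12.5 held globin at 1289 CPM of all UMIs (1276 to 1302) and the 3910 of E15.5 held 1708 (1695 to 1721). Most of this came from few barcodes with 2% or more globin, 27 on E12.5, of which 20 were in the erythroid-like cluster of 21 cells, and 16 on E15.5. Without them the levels were 220 CPM (214 to 225) and 148 (144 to 152).

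Below 2% globin, the level was spread over every named class of 20 or more cells. At E12.5 it ran over 6 classes from 73.8 CPM (42.2 to 120) in immune-like through 149 (134 to 165) in muscle-lineage-like, 176 (111 to 267) in Schwann-like, 178 (146 to 215) in endothelial-like and 222 (216 to 229) in connective tissue-like to 239 (223 to 257) in chondrocyte-like cells. Neighbours in this order overlap in their intervals, except immune-like with muscle-lineage-like cells and endothelial-like with connective tissue-like cells. At E15.5, 10 classes lay between 111 CPM (94.9 to 129) in mast-like and 200 (173 to 230) in mural-like cells, where a single cell gave 67 of 201 UMIs. Cells of unnamed clusters stood above these ranges, at 299 CPM (271 to 329) in 762 cells of E12.5 and 473 (422 to 527) in 328 of E15.5. The largest unnamed cluster of E15.5, with 224 cells, had the erythroid markers Car2, Hemgn and Slc4a1 among its top 10 genes. Vpreb3 ranked first there, and Cd79b, Mt1, Olfr655, Gm42418 and Chchd10 were also among the 10. An unnamed cluster of 65 cells on E12.5 had Gata1 as the last of its top 10, which began with Ctla2a, Bbc3 and Mc1r. These top genes do not settle what the 2 clusters are. No cluster of E15.5 was named erythroid-like, so globin of unnamed cells may not be free RNA. The connective tissue-like and muscle-lineage-like classes of E15.5 were at 143 (138 to 148) and 142 (133 to 152). Per cell, the mean was 0.364 to 0.844 globin UMIs on E12.5 and 1.35 to 3.0 on E15.5, where cells were deeper.

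Single barcodes set the level of several classes when all cells under 50% were kept. Immune-like cells of E12.5 then stood at 4537 CPM, with 991 of their 1007 globin UMIs in 1 barcode, and endothelial-like cells at 1594, with 866 of 974 in 1 barcode. Tenocyte-like cells of E15.5 stood at 7467 CPM with 2 barcodes of 2% or more, and at 147 (128 to 168) without them. Thinned to 2000 UMIs per cell, the share of cells under 2% globin with a globin UMI was 33.6% (32.3 to 35.0) in connective tissue-like, 25.4% (21.8 to 29.3) in muscle-lineage-like and 18.6% (8.39 to 33.4) in immune-like cells of E12.5. At E15.5 the 3 shares were 24.7% (22.9 to 26.5), 23.3% (19.2 to 27.8) and 25.0% (14.4 to 38.4). Unthinned they were 39.99%, 42.4% and 27.3% on E12.5 and 69.8%, 78.6% and 75.0% on E15.5. Of the connective tissue-like cells, 3104 of 8127 were too shallow for thinning on E12.5 and 6 of 2264 on E15.5.

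The free globin RNA was mostly embryonic on E12.5 and mostly adult on E15.5, as in the haemoglobin-rich barcodes, but its shares were not the same as theirs. In all 12830 E12.5 barcodes under 2% globin the embryonic share of beta-like UMIs was 83.7% (82.6 to 84.7), beside 86.4% in haemoglobin-rich barcodes. In the 5501 of E15.5 it was 3.63% (3.14 to 4.17), beside 2.61%, or 3.22% (3.18 to 3.26) in all barcodes of 2% or more. Hba-x was 45.8% (44.0 to 47.6) and 2.83% (2.20 to 3.59) of free alpha-like UMIs, beside 46.8% and 1.28%, or 48.6% and 2.02% in all barcodes of 2% or more. The intervals of free and haemoglobin-rich RNA did not overlap for the embryonic beta-like share at either age or for Hba-x on E15.5, and did for Hba-x on E12.5. The interval of the free beta-like share of E15.5 overlapped that of all barcodes of 2% or more. The class values on E12.5 lay between 75.0% (34.9 to 96.8), from 8 beta-like UMIs of immune-like cells, and 86.4% (75.7 to 93.6) in endothelial-like cells, and every interval held 83.7%. At E15.5 they lay between 0 of 44 UMIs (interval up to 8.04%) in epithelial-like and 7.60% (4.11 to 12.6) in endothelial-like cells. The endothelial-like interval lay above the 3.63% of all barcodes under 2%, and that of chondrocyte-like cells (1.42%, 0.388 to 3.59) ended just below it.

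The adult pairs were split differently in free RNA. Hba-a1 was 59.4% (57.0 to 61.8) of Hba-a1 and Hba-a2 in barcodes under 2% on E12.5 against 63.2% (62.6 to 63.9) in haemoglobin-rich ones, and 49.6% (47.5 to 51.7) against 56.7% on E15.5. Hbb-bs was 45.6% (42.0 to 49.2) of adult beta-like UMIs against 41.6% (40.5 to 42.7) on E12.5 and 75.9% (74.7 to 77.1) against 71.3% on E15.5. The difference had the same direction in both libraries for each pair, and the intervals of the Hbb-bs values on E12.5 overlap. Barcodes under 2% held 0.598 and 1.39 globin UMIs each on average. The part of depth was not tested.

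**Figure D4:**
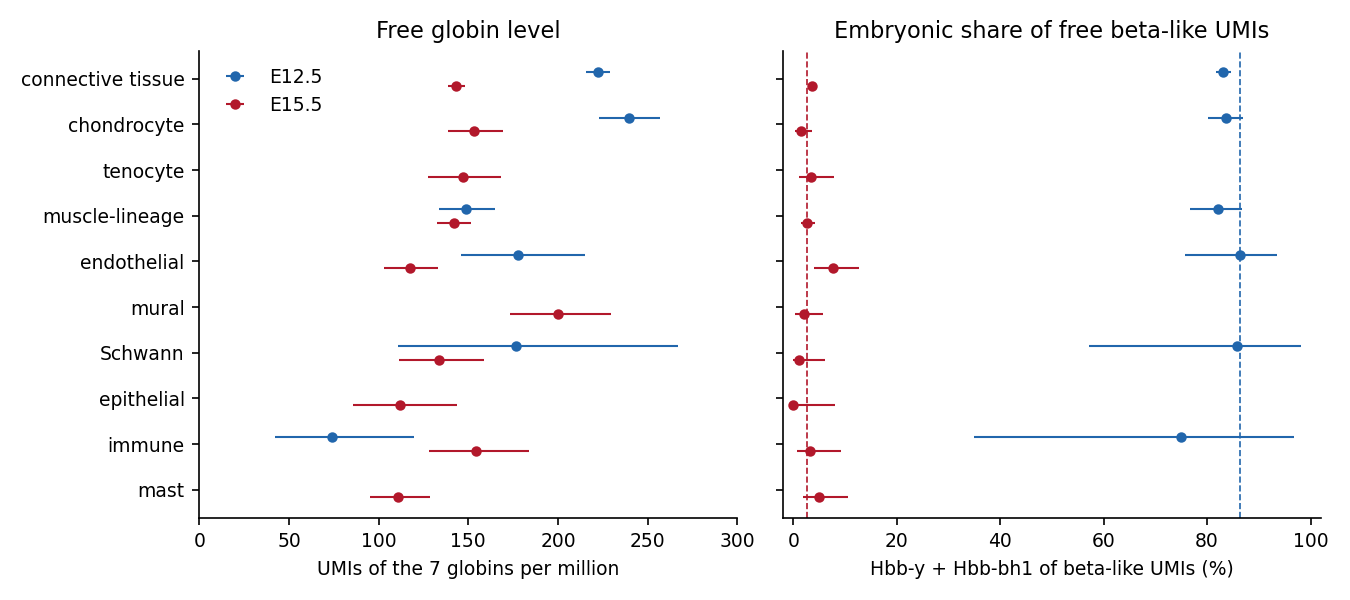
Left, CPM of the 7 globins, and right, embryonic share of beta-like UMIs (%), in cells under 2% globin of each named class with 20 or more cells, with 95% intervals for counting error. Dashed lines give the share in haemoglobin-rich barcodes, and classes of a library lie close to the line of their own library, with endothelial-like cells of E15.5 highest at 7.60%.

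The other RNA of haemoglobin-rich barcodes was compared as CPM of non-globin UMIs, which numbered 55200 on E12.5 and 177970 on E15.5. Of 643 genes with 30 or more UMIs over both ages, 90 (14.0%) were 2-fold or more higher on E15.5 and 207 (32.2%) 2-fold or more lower. The median log2 ratio was -0.52, and relative to it 154 were higher and 125 lower. Genes entered by UMIs summed over both ages, so those high in the larger E15.5 set passed more readily. The haem synthesis gene Alas2, the first and rate-limiting enzyme of the erythroid pathway, had 3225 CPM on E12.5 and 10979 on E15.5, a log2 ratio of 1.77 (1.55 to 1.997), and was the only 1 of 5 measured genes of its list past 2-fold upwards. Cpox of the same list was past 2-fold downwards, at -2.05 (-2.95 to -1.17). Of 6 red cell enzymes 4 were higher and none lower, among them the peroxidases Gpx1 (1.01, 0.86 to 1.15) and Prdx2 (1.10, 0.92 to 1.28) and Bpgm, which makes the haemoglobin ligand 2,3-bisphosphoglycerate (1.20, 0.95 to 1.46). Of 10 red cell membrane genes 1 was higher and 7 lower. Cd24a, a small surface glycoprotein, had a log2 ratio of 2.99 (2.29 to 3.78), and Slc4a1, the band 3 anion exchanger, one of -2.57 (-2.82 to -2.31). Of 10 genes of late maturation 5 were higher and 2 lower. Of 12 regulators of globin switching only Chd4, a chromatin remodeller, reached 30 UMIs, and it was past 2-fold downwards with 15 UMIs on E12.5 and 18 on E15.5, a log2 ratio of -1.43 (-2.50 to -0.33). Bcl11a, a repressor of embryonic globin genes, had 2 UMIs on E12.5 and 0 on E15.5, and it and the other 10 were not compared at this depth.

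The 2 kinds of E15.5 barcode differed in their other RNA. Within the E15.5 library, 432 genes were measured in 229 adult-beta against 14 embryonic-beta barcodes, and 163 (37.7%) were 2-fold or more higher in adult-beta and 57 (13.2%) lower, with a median log2 ratio of 0.54. All 5 measured membrane genes, of 13 listed, and 5 of 6 measured red cell enzymes, of 8 listed, were higher. Genes entered by UMIs summed over both kinds, which had 163352 (adult-beta) and 14618 (embryonic-beta) non-globin UMIs. Those high in adult-beta barcodes passed more readily, so the list counts lean towards higher by this rule. Gpx1 was at 17398 CPM of non-globin UMIs in adult-beta and 889 in embryonic-beta barcodes, a log2 ratio of 4.29 (3.51 to 5.20). Alas2 was at 11888 and 821, a ratio of 3.86 (3.05 to 4.81). Slc25a37, the mitochondrial iron importer, had 518 UMIs against 0. Measured against a floor of 3 counts over the group, it was at least 3.95 higher on the log2 scale. Connective tissue markers were also higher in adult-beta barcodes, at a summed 3569 (3285 to 3871) against 1984 (1329 to 2849) CPM of non-globin UMIs. The immune and the chondrocyte lists were each at 129 (79.6 to 197) and the mast cell list at 85.7 (46.9 to 144), all against 0 with an interval up to 252. Median total UMIs were 5892 and 3804, genes detected 238 and 278.5, and the mitochondrial share 0.373% and 0.164%. The part of these values was not tested.

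The embryonic-beta barcodes of E15.5 held few erythroid transcripts other than globin. Against those of E12.5, 267 genes were measured, of which 19 (7.12%) were 2-fold or more higher and 120 (44.9%) lower, with a median log2 ratio of -0.84. All 6 measured membrane genes (of 13 listed), 5 of 6 enzymes (of 8) and both measured haem synthesis genes (of 7) were 2-fold or more lower. Genes entered by UMIs summed over both ages, with 54031 non-globin UMIs on E12.5 and 14618 on E15.5. Those high on E12.5 passed more readily, so the list counts lean towards lower by this rule. The 10 erythroid markers below were summed without this minimum. Slc4a1 went from 357 UMIs to 1, or from 6607 to 68.4 CPM of non-globin UMIs, a log2 ratio of -6.59 (-11.90 to -4.11). Car2, carbonic anhydrase, was at 5941 and 616 CPM, a ratio of -3.27 (-4.41 to -2.33), and Slc25a37 went from 157 UMIs to 0, at least 3.82 lower on the log2 scale. The 10 erythroid markers summed to 20692 CPM on E12.5 with all 10 detected, and to 1642 (1052 to 2443) on E15.5 with 4 detected and 6 at 0, while globin made up a median of 62.0% and 70.6% of all UMIs. Connective tissue markers summed to 1185 (912 to 1513) and 1984 (1329 to 2849) CPM of non-globin UMIs, with 0 UMIs of the immune list at either age and of the chondrocyte list on E15.5. Median total UMIs were 2161 on E12.5 and 3804 on E15.5, median genes detected 472 and 278.5, and the median mitochondrial share 0.491% and 0.164%. The part of these markers, of depth and of RNA quality in this difference was not tested.

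The ferritin genes, whose proteins store iron, went the other way. Fth1 was at 29724 CPM of non-globin UMIs in embryonic-beta barcodes of E12.5 and 83322 in those of E15.5, a log2 ratio of 1.49 (1.38 to 1.60), and Ftl1 at 11012 and 21617, a ratio of 0.97 (0.77 to 1.17). In adult-beta barcodes of E15.5 Fth1 was at 26758, a ratio of -1.64 (-1.73 to -1.55) against the embryonic-beta barcodes of the same library. In barcodes under 2% globin Fth1 was at 448 CPM on E12.5 and 1142 on E15.5. Of the 3 haemoglobin-rich groups and the barcodes under 2% given here, the embryonic-beta barcodes of E15.5 had the highest Fth1 level. Over all haemoglobin-rich barcodes its ratio between the ages was 0.06 (-0.02 to 0.14), above the median gene, and 229 of the 243 E15.5 barcodes were adult-beta. Prdx2 was level between embryonic-beta barcodes of the ages, at 5016 and 5062 CPM, which is above the median gene.

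**Figure D5:**
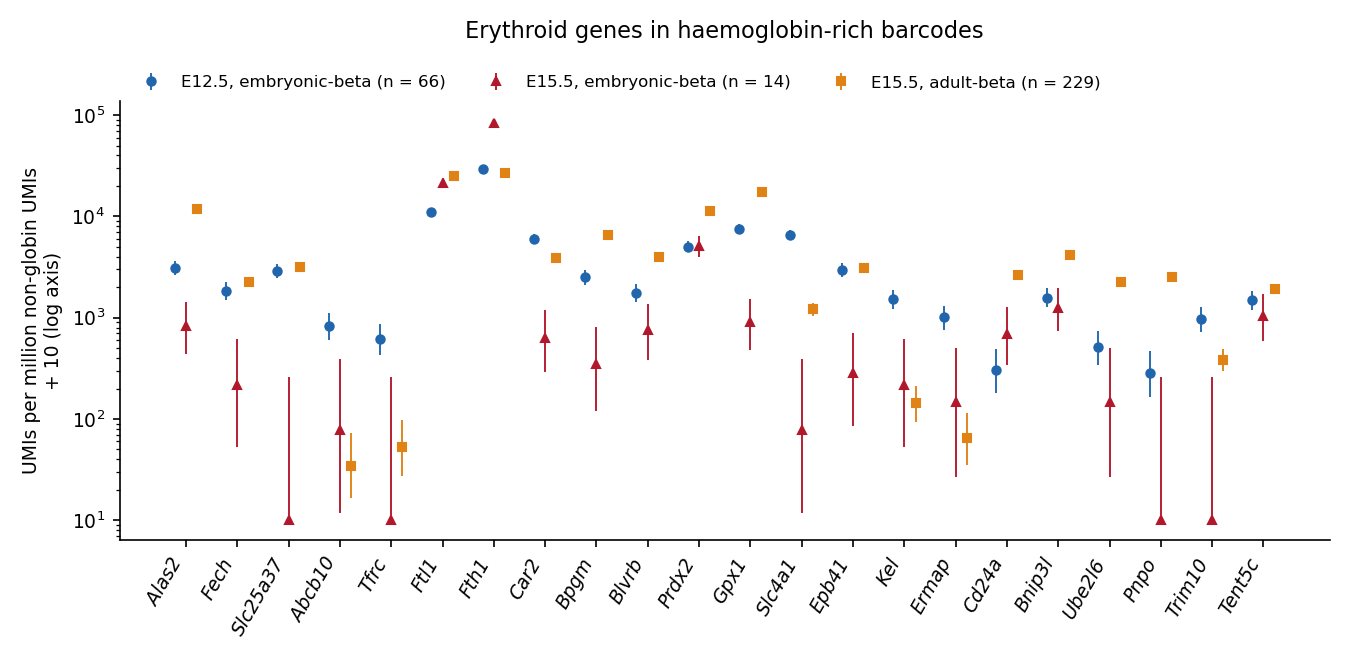
CPM of non-globin UMIs, plus 10, on a log axis, for 22 erythroid genes of the lists in embryonic-beta barcodes of E12.5 and E15.5 and adult-beta barcodes of E15.5, with 95% Poisson intervals. Most triangles (embryonic-beta, E15.5) lie under the other points, and Fth1, at 83322, lies above them.

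The genes with the widest differences between haemoglobin-rich barcodes of the ages were of several kinds. Highest on E15.5 were Plaat3 (log2 ratio 5.19, 2.69 to 10.5), the ubiquitin-like modifier Isg15 (4.82, 2.30 to 10.1), the mitotic ubiquitin enzyme Ube2c (4.14, 3.01 to 5.60), Syt14 (3.87, 1.97 to 6.93) and the spindle protein Nusap1 (3.57, 2.33 to 5.21). Each had 1 to 6 UMIs on E12.5. In CPM of non-globin UMIs, Syt14 (36.2), Ube2c (109) and Nusap1 (90.6) were then no higher than in E12.5 barcodes under 2% globin (37.1, 155 and 194). Plaat3 and Isg15, both at 18.1, were above those barcodes (3.12 and 2.46). Lowest were the phosphate transporter Slc20a1 (-5.90, -9.00 to -3.94), the membrane skeleton gene Add2 (-5.50, -8.61 to -3.51), Reln (-4.86, -7.22 to -3.16), the mitochondrial transporter Abcb10 (-4.83, -6.52 to -3.50) and Iqgap2 (-4.50, -6.47 to -2.98), with 2 to 5 UMIs each on E15.5. Slc20a1 (11.2) and Iqgap2 (22.5) were then below E15.5 barcodes under 2% globin (18.3 and 61.6). Add2 (11.2), Reln (16.9) and Abcb10 (28.1) were above them (1.43, 6.79 and 14.0).

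The genes most like the summed globins were erythroid in the main. Over 20 classes of both libraries, with haemoglobin-rich barcodes as a class each, the highest Pearson r of log2 (CPM + 10) among 13646 genes was that of Alas2, at 0.95. The ubiquitin enzyme Ube2l6 (0.91), Rec114 (0.90), Car2 (0.90) and Tspo2 (0.89) followed. Rec114, a gene of meiotic recombination, was at 226 CPM of all UMIs in haemoglobin-rich barcodes of E12.5 and 158 on E15.5, against 0.401 and 1.24 in connective tissue-like cells. The 20 classes share their libraries and differ in depth. The haemoglobin-rich classes were set by globin itself, and the erythroid-like class of E12.5 was named from markers that include Alas2 and Car2. The high rank of erythroid genes thus follows in part from how the classes were made and is no separate support.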

How the data were processed

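The values are UMI counts per gene and barcode, deposited by the authors as 10x matrices. Cell Ranger 4.0.0 made them, per the file headers, and the submitters' processing notes name Seurat 4.3.0 and mm10; the annotation release is not given in the sources used here. Members and gene lists were chosen with earlier results of these data known.

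UMIs were summed over barcodes in Python 3.11.15 with pandas 2.3.3, numpy 2.4.6 and scipy 1.17.1. Clusters came from leidenalg 0.10.2 on igraph 0.11.9 after scikit-learn 1.9.0, and figures from matplotlib 3.10.9. Haemoglobin-rich barcodes passed no gene, mitochondrial or doublet filter. The others needed 500 genes and under 10% mitochondrial UMIs, which kept 12245 and 4100. Of these, 1268 (10.4%) and 190 (4.63%) with the highest scores against simulated doublets were removed, at 0.8% per 1000 barcodes. Each library was clustered on its own (2000 variable genes without globins, 30 components, 15 neighbours, Leiden resolution 1.0), and a cluster took a class name from at least 3 markers that were 2-fold higher and seen in 10% of its cells, with 1 of them among its top 10 genes. Clusters left over could be named connective tissue-like by comparison with the other named classes. Unnamed clusters held 762 and 330 cells.

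Shares have exact binomial, levels exact Poisson, log2 ratios exact conditional and differences Newcombe intervals, of which PCR and cell sampling are no part. On data simulated for the comparison of non-globin genes between ages (553 genes), 97.1% of intervals held the true value and all 4-fold changes passed the 2-fold threshold, as did 4.63% of unchanged genes. The simulated counts varied by counting error only, as the intervals assume. These rates therefore do not cover variation between barcodes or libraries. Named genes are the members, other globins, listed erythroid genes, the 5 highest and 5 lowest ratios and the 5 genes most like the summed globins. Ahsp is not among the listed genes analysed, and 2 other genes of the lists are not reported here and are left out of list counts and marker sums, but not of class naming. Alternative settings changed the globin threshold, filters, weights, clusters, doublets, gene minimum and scaling.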

Additional observations from a re-analysis of the deposited data

How the results depend on the processing

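Counting at 80% or more globin left 1 haemoglobin-rich barcode on E12.5, and keeping only barcodes of 500 genes and under 10% mitochondrial UMIs left 26 on E12.5 and 6 on E15.5. The embryonic share of beta-like UMIs on E12.5 was 87.2% at 20% or more, 88.3% at 80% or more, 89.6% with 500 genes, 86.7% at 2% or more and 84.8% with barcodes of equal weight, and on E15.5 it was 3.09%, 0.503%, 4.3%, 3.22% and 5.10% in the same order. The Hba-x share of alpha-like UMIs was 49.0%, 49.6%, 52.5%, 48.6% and 45.1% on E12.5 and 1.96%, 0.217%, 0.742%, 2.02% and 1.67% on E15.5. Within embryonic-beta barcodes that share was 48.5% and 29.9%, and within adult-beta barcodes 0.161% and 0.00191%. The log2 ratio of alpha-like to beta-like UMIs was -0.78 at 80% or more, -0.65 with 500 genes and -0.83 in adult-beta barcodes on E12.5. At E15.5 it was -1.02, -1.09 and -1.02 in the same order, -0.99 at 2% or more, -0.47 in embryonic-beta barcodes and -0.96 with equal weights. None of these values changed sign, but within embryonic-beta barcodes the ratio was higher on E15.5 (-0.47) than on E12.5 (-0.72), against the order of all haemoglobin-rich barcodes.

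With no doublets removed, free globin was at 1339 and 1586 CPM and its embryonic share on E12.5 was 87.4%. In cells under 2% globin the levels were 220 and 148 CPM and the shares 83.1% and 3.29%, so that the order of the ages in free level depends on barcodes of 2% or more. Counts of non-globin genes higher and lower on E15.5 were 7 and 80 among barcodes of 80% or more, where E12.5 has 1 barcode, 52 and 30 among genes of 100 UMIs, and 154 and 125 relative to the median gene. They were 163 and 57 for adult-beta over embryonic-beta on E15.5 and 19 and 120 between embryonic-beta barcodes. The settings at 2% and by kind were chosen after seeing the data. Of 80 main alternatives 27 stayed near the main value and 53 moved. Near meant inside the counting interval of the main value or, for counts of barcodes and genes, within a fixed fold of it. Leaving out barcode sequences found in both libraries could not move the values it was applied to, since none of these sequences was haemoglobin-rich. Its alternatives are counted among the 27.

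The comparison of non-globin genes between kinds on E12.5 was not run, since only 4 barcodes were adult-beta. No paired analysis was possible because each age has 1 library. The embryonic-beta values of E15.5 rest on 14 barcodes with 14618 non-globin UMIs, which limits them to abundant genes.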

Other observations

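The rule on haemoglobin-rich barcodes leaves out embryonic-beta barcodes with 2% to 50% globin. With UMIs summed over barcodes, their shares of the lesser embryonic genes were higher than above the threshold at both ages, but not in every median. In the 37 such barcodes of E12.5, Hba-x was 54.3% (53.5 to 55.1) of alpha-like UMIs and Hbb-bh1 5.63% (5.33 to 5.94) of embryonic beta-like UMIs, against 48.5% and 3.90% in the 66 above it. In the 16 of E15.5 these shares were 42.3% (41.2 to 43.4) and 1.77% (1.46 to 2.13), against 29.9% and 0.490% in the 14 above it. At E15.5, 99 of the 110 Hbb-bh1 UMIs below the threshold came from 1 barcode of 11971 UMIs. The medians over barcodes were 48.3% and 34.8% for Hba-x and 5.65% and 0 for Hbb-bh1. Above the threshold the medians were 49.7% for Hba-x on E12.5 and 0.290% for Hbb-bh1 on E15.5. In the medians 2 of the 4 differences thus go the other way. The barcodes below the threshold had a median of 32.1% and 39.2% globin.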
